A study of Homo sapiens with 4 samples.

Results

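The genes described here are 10 genes of the decision between G1 and S phase. They were taken as the rows of a gene count table whose stable identifier carries the symbol CCND1, CCND2, CCND3, CCNE1, CCNE2, CDK2, CDK4, CDK6, CDKN1B or RB1. All 10 were found among the 60708 genes of the table. The measurement was TT-seq, in which newly made RNA is labeled with 4-thiouridine and the labeled fragments are purified and sequenced, so that reads report synthesis over introns and exons more than the standing mRNA pool.

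All 4 libraries came from HEK293, a human embryonic kidney cell line that carries adenoviral E1 genes, with an RPB1 degron genotype, in which auxin triggers the loss of the endogenous large subunit of RNA polymerase II. The cells were transfected with an RPB1 construct whose C-terminal domain held either 52 wild-type repeats (52X WT, 2 libraries) or 52 repeats with a T4A change, threonine to alanine at position 4 of each repeat (52X T4A, 2 libraries). Auxin was given for 48 h starting 48 h after transfection, and RNA was labeled for 20 min. Both groups thus shared the degron, the auxin and a transient transfection, and no library of untransfected or auxin-free cells was analysed here. The comparison asks whether synthesis of the G1 genes differed between cells that depended on the T4A and on the WT domain.

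In the G1 decision, growth signals raise the D-type cyclins (CCND1, CCND2, CCND3), which bind and activate the kinases CDK4 and CDK6. These kinases phosphorylate the retinoblastoma protein RB1, a repressor of E2F transcription factors. Freed E2F factors activate the genes of the E-type cyclins (CCNE1, CCNE2), and cyclin E with CDK2 completes the phosphorylation of RB1 and starts DNA replication. CDKN1B (p27) binds and inhibits cyclin E with CDK2. In HEK293 cells the adenoviral E1A protein also binds RB family proteins, which loosens this control.

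The 4 libraries held between 33188536 and 45605027 counts. Of the genes with 1 to 9 counts in a library, 81.9% to 85.4% had an even count, so both reads of a pair were mostly counted, and the counts are reads and not independent fragments. Across the 23321 genes tested, log2 CPM correlated at 0.991 between the WT libraries and at 0.979 between the T4A libraries. T4A replicate 1 stood apart, at 0.975 and 0.974 against the WT libraries, while T4A replicate 2 reached 0.989 and 0.988. T4A replicate 1 was low over GC-rich genes. Among 2317 protein-coding genes with a GC content above 55%, its median difference from the WT mean was −0.56 on the log2 scale, against 0.08 in T4A replicate 2. Results for the members are therefore given with and without this library. POLR2A, which encodes RPB1, was at 9640 and 8720 normalized CPM with the WT and at 7492 and 8083 with the T4A construct (0.848-fold, adjusted p = 0.659 by edgeR). This included any reads from the plasmids, so the values do not measure the loss of endogenous RPB1. Of 10 genes listed as markers of HEK293 cells, 9 had at least 1 CPM in every library and NEFM was at or near 0, with summed levels of 448 to 461 CPM in WT and 409 to 454 CPM in T4A. The blood, liver, fibroblast and endothelial markers each summed to at most 8.57 CPM in any library, with most of the endothelial sum from VWF.

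The sequence around the start of CCNE1 and of CDK6 is shown because the former had the higher and the latter the lower mean in T4A, as described below. Each window is from RefSeq (GRCh38.p14), runs from 250 bases before to 50 bases after a start site, and is written 5′ to 3′ on the strand of the gene. Capitals mark the GC box GGGCGG on either strand.
CCNE1, chr19:29811741-29812040, plus strand: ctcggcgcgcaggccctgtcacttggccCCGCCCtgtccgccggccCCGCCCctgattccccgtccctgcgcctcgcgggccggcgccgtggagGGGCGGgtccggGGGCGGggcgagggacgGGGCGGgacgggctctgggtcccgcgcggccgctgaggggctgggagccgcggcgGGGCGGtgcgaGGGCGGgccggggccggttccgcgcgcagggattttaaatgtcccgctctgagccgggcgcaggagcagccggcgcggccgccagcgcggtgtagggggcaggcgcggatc
CDK6, chr7:92836524-92836823, minus strand: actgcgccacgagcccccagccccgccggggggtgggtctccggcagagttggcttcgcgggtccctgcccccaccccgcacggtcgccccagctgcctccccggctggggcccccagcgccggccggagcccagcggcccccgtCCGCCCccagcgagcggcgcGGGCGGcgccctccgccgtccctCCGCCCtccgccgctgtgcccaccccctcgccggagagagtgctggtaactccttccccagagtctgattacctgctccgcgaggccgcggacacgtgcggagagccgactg
The CCNE1 window had a GC content of 81% and 7 GC boxes, and the CDK6 window shown had 78% and 3 GC boxes. A second RefSeq window of CDK6, at chr7:92833910-92834209, had 68.7% and 0 GC boxes and is not shown. A GC box was found in 45% of 35116 RefSeq windows of this length. RefSeq windows were at hand for 6 of the 10 genes. The E2F motif, searched as TTTCCCGC, TTTGGCGC, TTTCGCGC or TTTGCCGC on both strands, occurred in none of the windows of these 6 genes and in 3.31% of all windows. It occurred in a window of 9 of 13 listed E2F target genes of S phase. The RefSeq window of RB1 lies inside the listed gene, far from its first start, and is not shown.

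None of the 10 members passed the test between T4A and WT. The test was edgeR's quasi-likelihood fit across all genes with Benjamini-Hochberg adjustment, and the lowest adjusted p of a member was 0.201. At an adjusted p below 0.05 the fit called 1 gene of 23321, or 0.00429%, and it was no member, whereas DESeq2 called 3 members (CCNE2, CDK6 and RB1) and 910 genes in all. At an unadjusted p below 0.05 it placed CCNE1 and CCNE2 higher and CDK6 and RB1 lower in T4A, 4 of the 10 genes beside 15.5% of all genes (7.45% higher and 8.02% lower). Both T4A libraries lay above both WT libraries for 2 members, beside 24.8% of all genes, and below them for 3 members, beside 24.7% of all genes, so the non-overlap by itself was near the background. The median log2 fold change of the members was −0.08, against −0.00076 over all genes tested, and it turned to 0.10 without T4A replicate 1. Levels below are normalized CPM, the counts scaled to a common library size after TMM correction. With 2 libraries in each group and no label of separate cultures, p-values measure the spread between these libraries, pooled in part across genes. That spread may be technical. A lower level per cell and fewer cells of one kind or in one cell cycle phase cannot be told apart in these bulk libraries.

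**Figure D1:**
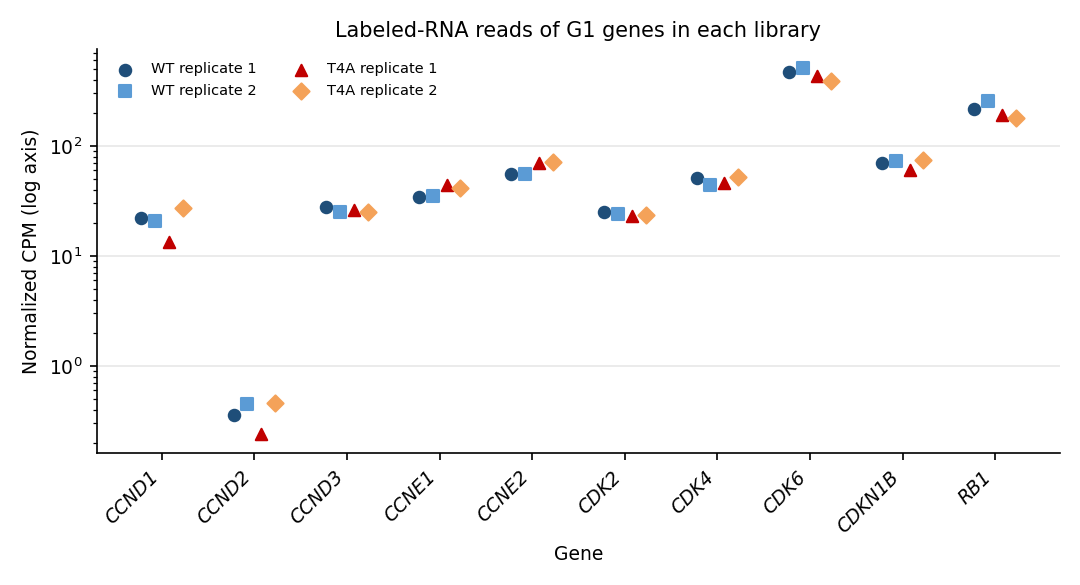
Normalized CPM (log axis) of the 10 genes in each of the 4 libraries, with circles and squares for the WT and triangles and diamonds for the T4A libraries. Both T4A points lie above both WT points for CCNE1 and CCNE2 and below them for CDK6, RB1 and, by a small margin, CDK2. The T4A points of CCND1 lie on both sides of the WT points.

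The E-type cyclins had the higher values in T4A. CCNE2, an activating subunit of CDK2, lies on chromosome 8 from 94879770 to 94896678 on the minus strand. It had 2174 and 2432 counts in WT and 2360 and 2468 counts in T4A. These are 55.5 and 55.2 CPM in WT (mean 55.4 ± 0.263, SD, n = 2) and 70.3 and 71.4 CPM in T4A (mean 70.8 ± 0.761, SD, n = 2). The gap between the groups was many times the gap between replicates of either group. In T4A the log2 fold change was 0.36 (SE 0.09, 95% interval 0.16 to 0.55, adjusted p = 0.201 by edgeR), which is 1.28-fold. It was 0.37 without T4A replicate 1 and between 0.33 and 0.35 with any other library left out. The gene passed the threshold in 2 of 14 alternatives, with DESeq2 (adjusted p = 0.0116) and with the trend on GC content removed (adjusted p = 0.0132 by edgeR), a setting chosen after the data were seen, and over all 14 its adjusted p ran up to 0.607.

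CCNE1, the other E-type cyclin, lies on chromosome 19 from 29811991 to 29824312 on the plus strand and overlaps no listed gene. It had 1346 and 1556 counts in WT and 1492 and 1418 counts in T4A. After scaling these were 34.4 and 35.3 CPM in WT (mean 34.8 ± 0.644, SD, n = 2) and 44.4 and 41.0 CPM in T4A (mean 42.7 ± 2.43, SD, n = 2). Both T4A libraries were above both WT libraries. The log2 fold change was 0.29 (SE 0.10, 95% interval 0.06 to 0.52, adjusted p = 0.255 by edgeR), or 1.23-fold. It stayed positive in 14 of 14 alternatives, from 0.24 without T4A replicate 1 to 0.34 with the library size in place of TMM, and it passed the threshold in 0 of them, with adjusted p from 0.0688 to 0.703. Within a library, CCNE2 held 1.62 and 1.56 times the counts of CCNE1 in WT and 1.58 and 1.74 times in T4A, so the ratios of the groups overlapped. The intervals of both genes, which are not adjusted for the number of genes tested, lie above 0.

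RB1 and CDK6, both long genes, had the lower values in T4A. RB1, the pocket protein that holds E2F factors in check, lies on chromosome 13 from 48303744 to 48599436 on the plus strand. It had 8457 and 11214 counts in WT and 6378 and 6145 counts in T4A. These are 216 and 254 CPM in WT (mean 235 ± 27.1, SD, n = 2) and 190 and 178 CPM in T4A (mean 184 ± 8.68, SD, n = 2). Both T4A libraries were below both WT libraries, and the WT replicates were themselves farther apart than the T4A replicates. The log2 fold change was −0.36 (SE 0.11, 95% interval −0.60 to −0.11, adjusted p = 0.237 by edgeR), or 0.782-fold. Leaving out WT replicate 2 gave −0.25, leaving out WT replicate 1 gave −0.48 and leaving out T4A replicate 1 gave −0.40. RB1 passed the threshold in 3 of 14 alternatives, namely DESeq2 (adjusted p = 0.0214), the GC content trend removed (adjusted p = 0.00381 by edgeR) and without T4A replicate 2 (adjusted p = 0.0488 by edgeR), and its highest adjusted p was 0.586.

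CDK6, the catalytic partner of D-type cyclins, lies on chromosome 7 from 92604921 to 92836573 on the minus strand and had the most counts of the 10 genes. It had 18520 and 22693 counts in WT and 14445 and 13513 counts in T4A. These are 473 and 515 CPM in WT (mean 494 ± 29.4, SD, n = 2) and 430 and 391 CPM in T4A (mean 411 ± 27.9, SD, n = 2). The groups did not overlap. The log2 fold change was −0.27 (SE 0.11, 95% interval −0.52 to −0.01, adjusted p = 0.311 by edgeR), or 0.831-fold, and it was −0.33 without T4A replicate 1. It passed with DESeq2 (adjusted p = 0.0457) and with the GC content trend removed (adjusted p = 0.00346 by edgeR), and its adjusted p over the 14 alternatives ran up to 0.670. The median log2 fold change of the 1455 protein-coding genes over 200 kb was −0.10, and CDK6 and RB1 stood at percentiles 20.5 and 10.3 of that class. Once each library's dependence on gene length was taken out, CDK6 was at −0.25 and RB1 at −0.35.

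**Figure D2:**
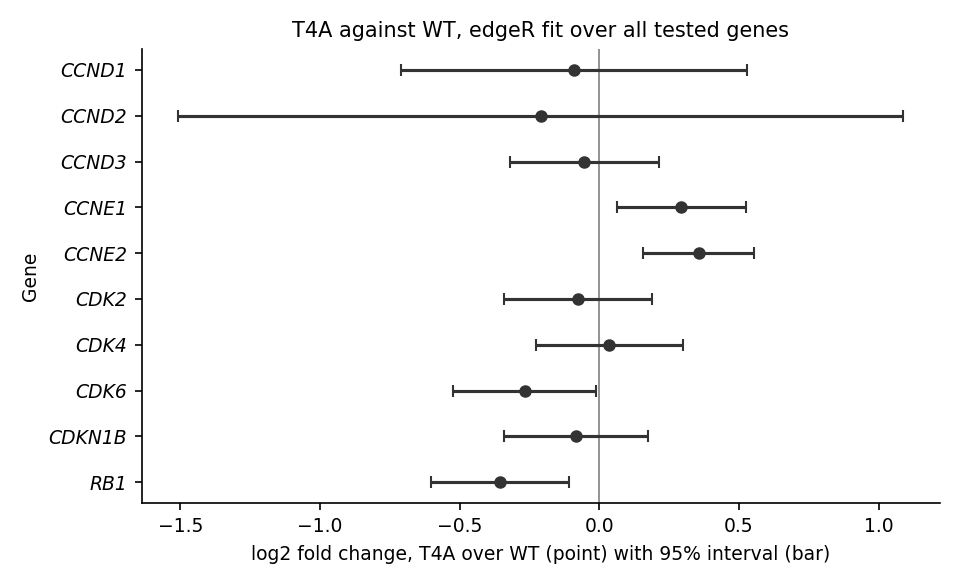
Log2 fold change of T4A over WT for each gene (points) with its 95% interval (bars), from the fit across all genes. The intervals of CCNE1 and CCNE2 lie above 0 and those of CDK6 and RB1 below 0, no adjusted p is below 0.05, and the bar of CCND2 runs from −1.51 to 1.09.

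The D-type cyclins gave no common direction. CCND1, the growth-responsive cyclin of CDK4 and CDK6, lies on chromosome 11 from 69641156 to 69654474 on the plus strand. It had 868 and 920 counts in WT and 449 and 935 counts in T4A. After scaling these were 22.2 and 20.9 CPM in WT (mean 21.5 ± 0.923, SD, n = 2) and 13.4 and 27.0 CPM in T4A (mean 20.2 ± 9.66, SD, n = 2). T4A replicate 1 was below and T4A replicate 2 above both WT libraries, so the T4A mean describes neither library. Its log2 fold change was −0.09 (SE 0.27, 95% interval −0.71 to 0.53, adjusted p = 0.891 by edgeR). Without T4A replicate 1 it was 0.34 (adjusted p = 0.284 by edgeR), and without T4A replicate 2 it was −0.70 (adjusted p = 0.000483 by edgeR), so a single library sets both sign and call.

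Among the 10 genes, the gap between the T4A replicates was widest at CCND1. The gene span has a GC content of 58.6%, the highest of the 10 genes, and T4A replicate 1 was 1.01 below T4A replicate 2 on the log2 scale, a gap given as −1.01. Across the 10 genes this gap correlated with GC content at r = −0.72, and across 23162 tested genes at r = −0.53. The points share the same pair of libraries and are described without a test. The value for the 10 genes includes CCND2, with a gap of −0.82 from 8 and 16 counts. Of the other pathway genes, CDT1, at 65.3% GC, had a gap of −2.11, but JUN, at 47.0%, had one of −0.78. The cause of the gap at CCND1 was not tested. The gap between the WT replicates correlated with GC content at r = 0.49 across the 10 genes and at r = 0.16 across all genes. With the GC content trend of each library removed, CCND1 stood at 0.09 (adjusted p = 0.692 by edgeR).

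**Figure D3:**
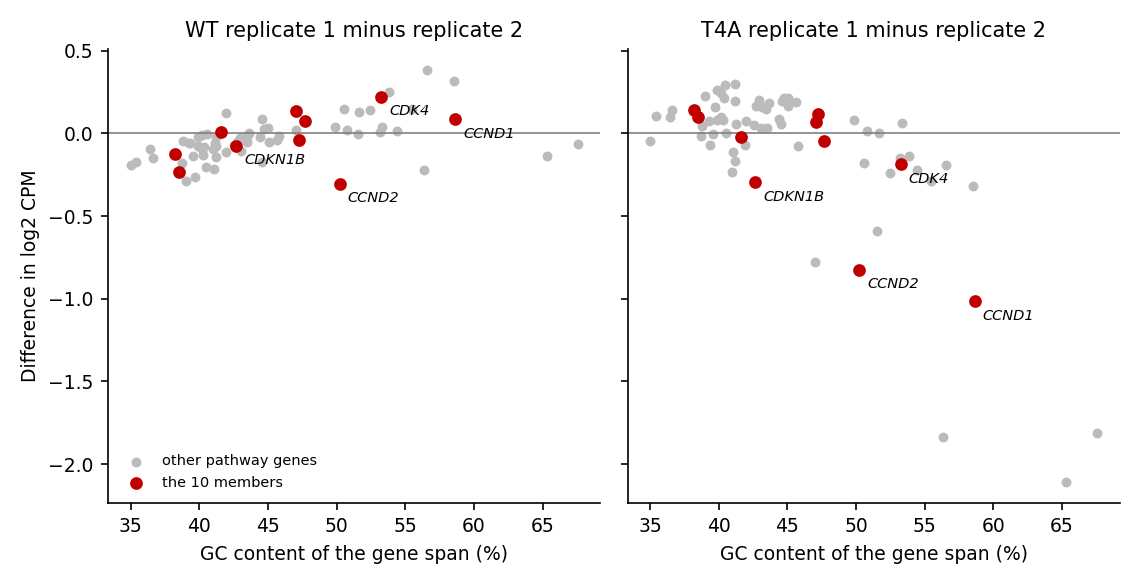
Difference in log2 CPM between the replicates of WT (left) and of T4A (right) against the GC content of the gene span in percent, for the 10 members (red) and the other pathway genes (grey). The WT differences of the members stay between −0.30 and 0.22, while T4A replicate 1 lies 1.01 below replicate 2 at CCND1, the most GC-rich member.

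CCND3, the third D-type cyclin, lies on chromosome 6 from 41934934 to 42050357 on the minus strand. It had 1084 and 1110 counts in WT and 876 and 860 counts in T4A. These are 27.7 and 25.2 CPM in WT and 26.1 and 24.9 CPM in T4A, and the groups overlap. The log2 fold change was −0.05 (SE 0.12, 95% interval −0.32 to 0.21, adjusted p = 0.846 by edgeR), so a change beyond 0.801-fold or 1.16-fold lies outside the interval. Without T4A replicate 1 it was −0.08. CCND2 could hardly be measured. It lies on chromosome 12 from 4269771 to 4305353 on the plus strand, and a second listed gene of the same strand, ENSG00000285901, starts at 4273762 and runs past its end. Reads over both genes were not counted. All 9293 listed genes with no base free of other genes of their strand stood at 0 in all 4 libraries. This left 3991 bases, or 11.2%, of CCND2, with 14 and 20 counts in WT and 8 and 16 counts in T4A. The 95% interval of its fold change ran from 0.351 to 2.13, and its log2 fold change went from −0.21 to 0.19 without T4A replicate 1.

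The mix of D-type cyclins was read within each library, where the size of the library does not enter. By raw counts, which grow with the length of a gene, CCND1 held 44.2% and 44.9% of the counts of the D-type cyclin genes in WT and 33.7% and 51.6% in T4A. CCND3 held 55.1% and 54.1% in WT and 65.7% and 47.5% in T4A. CCND2 held under 1% in every library, from 0.600% to 0.976%, over its small countable part. Per countable kilobase CCND1 led the mix, with 83.5% and 82.5% in WT and 77.8% and 86.0% in T4A. CCND3 then held 12.0% and 11.5% in WT and 17.5% and 9.13% in T4A, and CCND2 between 4.49% and 5.99%. By either measure, the T4A libraries of CCND1 and CCND3 lay on either side of the WT libraries, and for CCND2 the groups overlapped. On the count shares, an exact permutation test of 2 against 2 libraries gave two-sided p-values from 0.667 to 1, in a design where none below 0.05 can be reached. Without T4A replicate 1 the difference of the CCND1 share of counts turned from −1.86 to 7.11 percentage points.

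The other kinases and the inhibitor were close to even. CDK4, the main partner of cyclin D1, lies on chromosome 12 from 57747727 to 57756013 on the minus strand. Its levels were 51.6 and 44.2 CPM in WT and 45.9 and 52.2 CPM in T4A. The groups overlapped, and the log2 fold change was 0.04 (SE 0.12, 95% interval −0.23 to 0.30, adjusted p = 0.897 by edgeR). Leaving out T4A replicate 1 gave 0.13, whereas leaving out WT replicate 2 gave −0.09 and leaving out T4A replicate 2 gave −0.07, so that its sign was not stable. CDK2, the kinase of the E-type cyclins, lies on chromosome 12 from 55966781 to 55972789 on the plus strand. Its levels were 25.2 and 23.9 CPM in WT and 22.9 and 23.7 CPM in T4A. The T4A libraries were lower by less than the gap between the WT replicates, with a log2 fold change of −0.08 (SE 0.12, 95% interval −0.34 to 0.19, adjusted p = 0.773 by edgeR), and −0.04 without T4A replicate 1. The ratio of CDK6 to CDK4 counts was 9.18 and 11.7 in WT and 9.37 and 7.49 in T4A, and these overlapped.

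CDKN1B, the inhibitor p27, lies on chromosome 12 from 12685498 to 12722369 on the plus strand. Its levels were 69.2 and 72.8 CPM in WT and 60.3 and 73.9 CPM in T4A. T4A replicate 1 was low and T4A replicate 2 was above both WT libraries. The log2 fold change was −0.08 (SE 0.11, 95% interval −0.34 to 0.17, adjusted p = 0.742 by edgeR), and 0.06 without T4A replicate 1.

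Levels were compared between genes per kilobase, as normalized CPM per kilobase of the listed span that no other gene of the same strand covers. These levels average over introns and alternative starts. CDK4 stood highest, between 5.37 and 6.35 CPM per kb over the 4 libraries. CDK2 followed in WT, at 4.19 and 3.98, apart from CCNE2 at 3.28 and 3.26. In T4A the order of these genes was turned, with CCNE2 at 4.16 and 4.22 and CDK2 at 3.82 and 3.94. CCNE1 came next in both groups, at 2.79 and 2.86 in WT and 3.61 and 3.33 in T4A. The E-type cyclin genes thus had a denser signal than any D-type cyclin gene in every library.

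CDK6, CDKN1B and CCND1 were in the middle. CDK6 was at 2.08 and 2.26 CPM per kb in WT and at 1.89 and 1.72 in T4A. CDKN1B was at 1.88 and 1.98 in WT and at 1.63 and 2.003 in T4A, so that it overlapped CDK6 in T4A but not in WT. The listed span of CDKN1B begins at 12685498, far upstream of its RefSeq start window at chr12:12717118-12717417, so its level depends on that span. CCND1 was at 1.67 and 1.57 in WT and spread from 1.004 to 2.03 in T4A, where it overlapped both. RB1 lay below them, between 0.656 and 0.939. CCND3 was between 0.216 and 0.240, an average over a span of 115 kb with several RefSeq start windows. A window at chr6:42048639-42048938 lies near the start of the span. Windows at chr6:41941759-41942058 and chr6:41939156-41939455 lie far downstream of that start. CCND2 was lowest, between 0.0597 and 0.116, from 8 to 20 counts over its countable part. CDK6 had the most reads of the members and ranked 5 of 10 per kilobase in WT.

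**Figure D4:**
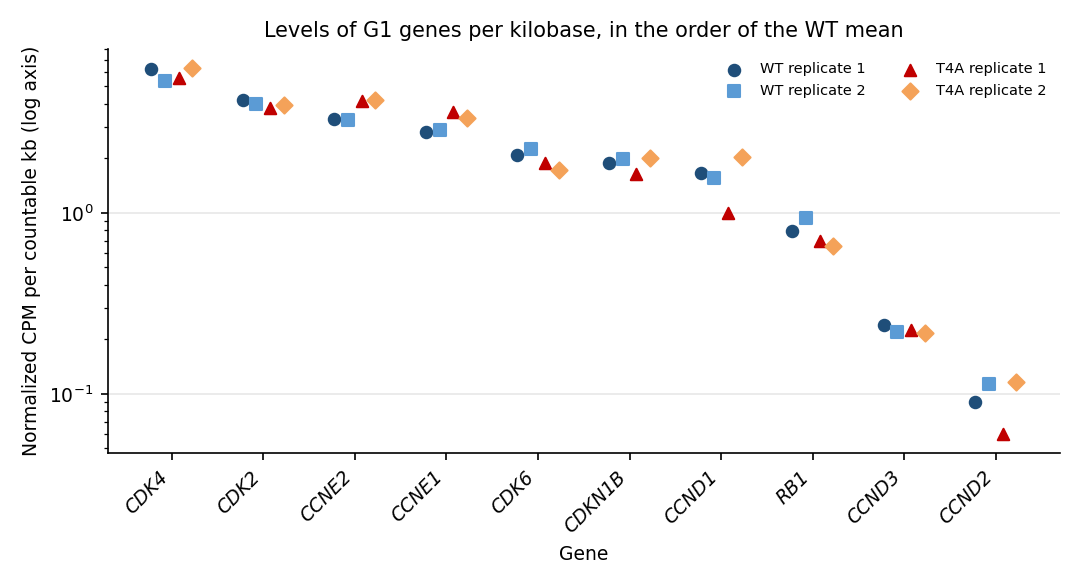
Normalized CPM per countable kilobase (log axis) of the 10 genes in each library, ordered by the WT mean. CDK4 is highest in every library, CDK2 and CCNE2 change places between WT and T4A, and RB1, CCND3 and CCND2 are lowest in WT.

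The rest of the pathway was read from 6 lists of 62 genes, of which 60 were tested. None passed at an adjusted p below 0.05 (lowest adjusted p = 0.208 by edgeR). DESeq2 called 8 of them, beside 910 of 23321 genes in all. At an unadjusted p below 0.05 there were 9 higher and 4 lower in T4A, 13 of 60 beside 15.5% of all genes. Upstream, among 10 genes of growth and Wnt signals that induce cyclin D, 1 of 9 tested was above 0, and their median log2 fold change was −0.12. MYCN, with 2 to 14 counts, was not tested. CTNNB1, the Wnt effector beta-catenin, was highest at 0.17, and MAPK3, a growth-signal kinase, was lowest at −0.25, with 1.25 CPM in T4A replicate 1 against 4.599 CPM in T4A replicate 2. EGFR, a growth factor receptor, was at −0.23 and alone below an unadjusted p of 0.05 (adjusted p = 0.310 by edgeR). JUN, an AP-1 factor, had the most signal per kilobase in the list, with 262 and 258 CPM in WT and 163 and 279 CPM in T4A. MYC was at 110 and 110 CPM in WT and at 83.0 and 125 CPM in T4A. For JUN, MYC and MAPK3, T4A replicate 1 was below and T4A replicate 2 above both WT libraries.

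The CDK inhibitors other than CDKN1B had positive values. All 6 tested were above 0, beside 11634 of 23321 genes, with a median log2 fold change of 0.28. T4A replicate 2 was above T4A replicate 1 for all 6. Both T4A libraries lay above both WT libraries for 4 of them, beside 24.8% of all genes. CDKN2B (p15), which blocks CDK4 and CDK6, was at 45.1 and 52.3 CPM in WT and 61.1 and 66.1 CPM in T4A. Its log2 fold change was 0.38 (SE 0.11, adjusted p = 0.223 by edgeR), and its groups did not overlap. CDKN2D (p19) had a log2 fold change of 0.53 (SE 0.22, adjusted p = 0.304 by edgeR), from 4.91 and 3.92 CPM in WT and 5.66 and 7.06 CPM in T4A. CDKN1A (p21), the most strongly transcribed per kilobase, was at 105 and 104 CPM in WT and 106 and 123 CPM in T4A. CDKN1C (p57) had the highest value, 1.07 (SE 0.59), which came from 66 counts in T4A replicate 2 beside 22, 26 and 17 counts in the other libraries. CDKN2A (p16) was lowest at 0.02, with 155 and 157 CPM in WT and 149 and 167 CPM in T4A.

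The partners of RB1 did not share its value. RBL1 (p107) and RBL2 (p130), the other pocket proteins, had log2 fold changes of −0.06 and −0.16, and only RBL2 had both T4A libraries below both WT libraries. MYBL2, a partner of the MuvB complex, was highest of its list at 0.27 (SE 0.10, adjusted p = 0.271 by edgeR), with 289 and 282 CPM in WT and 353 and 334 CPM in T4A. It was also the 1 gene of the list below an unadjusted p of 0.05 and had the most signal per kilobase. LIN9, a core subunit of MuvB, was lowest at −0.19. LIN37 was not tested and stood at 0 in all 4 libraries, and no base of it is free of another gene of its strand.

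The E2F and DP factors were evenly split, with 5 of 10 above 0 and a median log2 fold change of −0.0042. TFDP1, the DP1 partner through which E2F factors bind DNA, was lowest at −0.33 (SE 0.09, adjusted p = 0.208 by edgeR), with 179 and 174 CPM in WT and 143 and 137 CPM in T4A. E2F5, a factor that works with p130 in repression, was at −0.27 (adjusted p = 0.277 by edgeR). E2F7, an atypical repressor, was highest at 0.17, and E2F3, an activator, had the most signal per kilobase, at −0.04. E2F1, the classical partner of RB1, was at 46.2 and 41.7 CPM in WT and 43.5 and 53.0 CPM in T4A, which overlap.

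Of the 16 E2F target genes of S phase, 10 were above 0 and the median log2 fold change was 0.08. CDC6, which loads the MCM helicase, had 147 and 148 CPM in WT and 183 and 179 CPM in T4A, a log2 fold change of 0.30 (SE 0.08, adjusted p = 0.228 by edgeR). RRM2, a subunit of ribonucleotide reductase, was at 0.30, TYMS, the thymidylate synthase, at 0.26, PCNA, the replication clamp, at 0.25 and MCM4, a helicase subunit, at 0.20. These 5 genes were below an unadjusted p of 0.05, as were CCNE1 and CCNE2, which E2F factors also activate. CDT1, a licensing factor, was lowest at −0.82 (SE 0.50), from 21.4 and 23.5 CPM in WT and 4.74 and 20.6 CPM in T4A, so that T4A replicate 1 set the value.

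Among the 12 genes of CDK activation and turnover, 6 were above 0 and the median log2 fold change was −0.0018. SKP1, a subunit of the ubiquitin ligases that degrade cyclin E and p27, was highest at 0.36 (SE 0.11, adjusted p = 0.241 by edgeR) and the list's gene below an unadjusted p of 0.05. AMBRA1, the receptor for degradation of D-type cyclins, was lowest at −0.17.

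**Figure D5:**
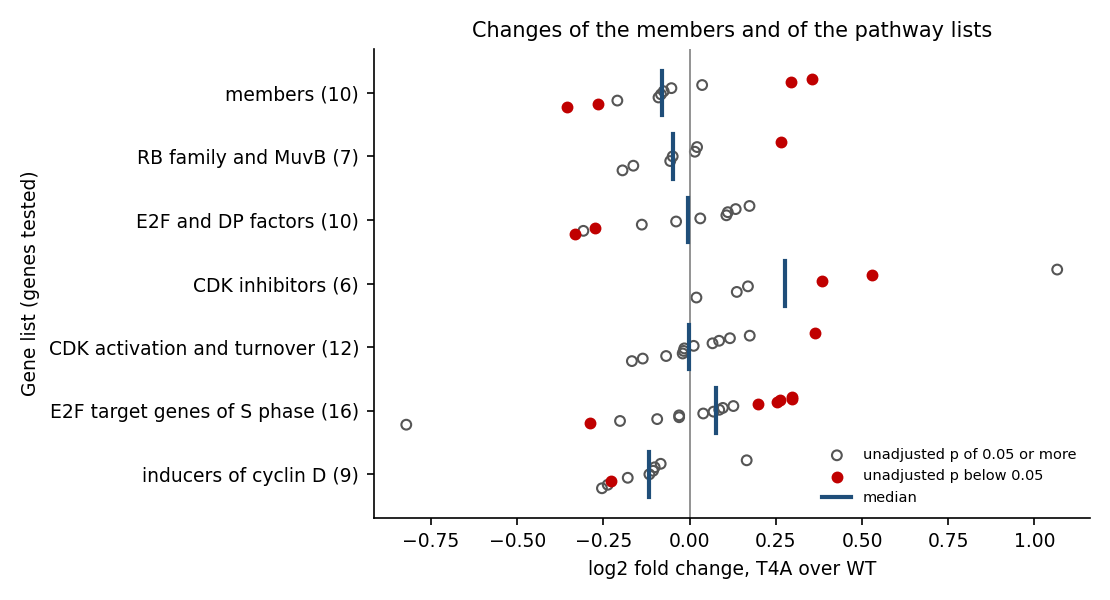
Log2 fold change of T4A over WT for each tested gene of the members and of the 6 pathway lists, with the median as a bar and genes at an unadjusted p below 0.05 filled in red. All 6 CDK inhibitors lie above 0, 8 of 9 inducers of cyclin D lie below 0, and no gene in the plot has an adjusted p below 0.05.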

How the data were processed

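TT-seq libraries of 2 WT and 2 T4A samples were read from a gene table that the authors deposited as raw counts, 1 column per library, with no normalization. Per the submitters' processing notes, cutadapt 4.6, STAR 2.7.11b, Picard, FastQC and deepTools 3.5.6 were used with GRCh38, and column names point to unique alignments. The counter's version, annotation release and strand setting are not given in the sources used here. The listed length equals the gene span, so introns were counted, and reads shared by genes on the same strand were left uncounted. Symbols were matched by stable identifier for 58702 of 60708 genes. GC content came from GRCh37 spans by identifier, and coordinates are those of the table.

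Counts were fitted with edgeR 4.0.16 in R 4.3.3 (TMM, default filter, quasi-likelihood test, Benjamini-Hochberg over 23321 genes, threshold 0.05). Standard errors came from the F statistic, and log2 CPM used a prior count of 2. The fit was tested on simulated data. Alternatives were DESeq2 1.42.0, other scalings and filters, a replicate block, removal of length or GC trends (lowess span 0.3), and leaving out each library. All 10 members are named. From each pathway list the text names the genes with an unadjusted p below 0.05, those with the highest and lowest change and the one with the most signal per kilobase. RBL1, RBL2 and E2F1 were named after their values were seen, and some listed genes are not reported here by name. The members and lists were chosen with earlier results of these data known. Depth ranged from 33188536 to 45605027 counts. Intervals rest on 2 libraries per group and on a spread moderated across genes (median prior degrees of freedom 6.48, median total 8.48).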

Additional observations from a re-analysis of the deposited data

How the results depend on the processing

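Over 139 values of single members under 14 alternatives, 132 kept the direction. CCNE1, CCNE2, CDK2, CDK6 and RB1 kept it throughout. Without T4A replicate 1, CCND1 (0.337), CCND2 (0.190) and CDKN1B (0.0632) turned positive. CCND3 turned to 0.00556 without WT replicate 1. CDK4 turned to −0.0881 without WT replicate 2 and to −0.0736 without T4A replicate 2. Across the fits that each drop 1 library, values ran from −0.701 to 0.337 for CCND1, −0.778 to 0.190 for CCND2, −0.140 to 0.00556 for CCND3, −0.0881 to 0.141 for CDK4 and −0.252 to 0.0632 for CDKN1B. CCND1 turned to 0.0904 with the trend on GC content removed, an alternative chosen after seeing the data. CCND2 was not tested with at least 10 counts in every library, and DESeq2 gave it no adjusted p.

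No member was called in the main analysis (4 at an unadjusted p below 0.05). DESeq2 called 3 members and 8 pathway genes, and the GC trend removal called 3 members and 14 pathway genes, CCNE2, CDK6 and RB1 being the members of both. Over all genes, 1 of 23321 was called in the main analysis, 910 of 23321 by DESeq2 and 2402 of 23162 with the GC trend removed. With no filter 150 of 39234 were called. The length trend removed gave 2 and the replicate block 533, each of 23321. With the block, 0 members and 1 pathway gene were called, and with the block and the length trend removed 0 genes were. The labels name no pairing of the replicate numbers. Across genes the replicate 1 libraries deviated from their groups with a correlation of 0.00498. This value cannot exclude a pairing, since the replicate gaps of T4A and WT correlated with GC content in opposite directions (r = −0.53 and 0.16 across all genes). With 1 library left out, the other library of that group is assumed to vary like the pair. Members called then ran from 0 to 2, pathway genes from 0 to 6, all genes from 0 (without WT replicate 2) to 3466 (without T4A replicate 2), and the members' median from −0.164 to 0.0986. The T4A minus WT share ran from −10.8 to 7.11 percentage points for CCND1, −0.244 to 0.0396 for CCND2 and −7.15 to 11.1 for CCND3. The cause of these differences was not tested. Depth limits CCND2, whose 8 to 20 counts allow no reading of a change.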
